A study of Mus musculus with 20 samples.

Results

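Complement is a set of plasma and cell surface proteins that marks microbes, dead cells and debris for removal, and 9 of its genes were followed here through 4 experiments on mouse skeletal muscle. They were the genes of the 3 chains of C1q (C1qa, C1qb and C1qc), 3 components of the cleavage cascade (C3, C4b and complement factor B, Cfb), the gene of properdin (Cfp) and the receptors for the fragments C3a and C5a (C3ar1 and C5ar1). They were taken by gene symbol from every table of expression values, and all 9 were found in each of the 4 tables, among 16762 genes that the tables shared and up to 24340 genes in a table. Levels are in FPKM, a count of fragments divided by the length of the transcript and by library depth, so that they can be compared between genes per unit of length.

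The study was described as a characterization of resident muscle macrophages and of their role in regeneration and fibrosis. In injured muscle, C57BL/6J males ate a diet with PLX73086 or its control for 3 weeks and then a regular diet for 3 days, after which the tibialis anterior (TA) of the lower leg was damaged and 1 whole TA was sequenced. PLX73086, at 200 mg per kg of food, inhibits CSF1R, the receptor for macrophage growth factors. There were 2 PLX and 2 control libraries at 18 h, and 1 of each at 12 h. The dystrophic groups were whole TAs of female mdx mice, a model of muscular dystrophy without dystrophin, taken at 8 months of age. For 6 months 3 of these mice had eaten the PLX73086 diet and 3 the control diet. Of these, 1 PLX and 2 control mice also carried the PDGFRaEGFP reporter. Resident macrophages came from uninjured muscle of male Cx3cr1-GFP mice, as CD45+ CD11B+ LY6G- F4/80+ MERTK+ cells in 4 gates that differed in surface MHCII and GFP, with 1 library each. Infiltrating cells were GFP+ CD45+ CD11B+ cells without LY6G or SIGLECF, sorted from damaged TAs of wild-type female mice surgically joined to a GFP partner, with 1 library for day 2, 2 libraries for day 4 and 1 library for day 6. GFP in that table marks cells that arrived through the shared blood, so host cells were not sampled.

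The sorted libraries carried the macrophage genes their gates call for. Csf1r stood between 714 and 947 FPKM and Adgre1, the gene of F4/80, between 226 and 283 FPKM in the resident gates, with 182 to 356 FPKM and 120 to 229 FPKM in infiltrating cells. The 8 macrophage markers summed to 7968 to 9673 FPKM in the resident gates, and markers of other cells had lower sums. The dendritic cell markers summed to 3486 and 2651 FPKM in the MHCII+ gates with and without GFP, against 136 and 249 FPKM in the MHCII- gates with and without GFP. Most of the MHCII+ sums was H2-Ab1, an MHCII gene, at 3258 and 2404 FPKM. The adipocyte markers summed to 757 to 1238 FPKM, nearly all from Fabp4 at 751 to 1228 FPKM, while Adipoq was at 0.460 FPKM or lower. The neutrophil markers summed to 168 to 434 FPKM. The 8 endothelial markers summed to 218 to 342 FPKM and 8 markers of fibro-adipogenic progenitors (FAPs, the fibroblast-like cells of muscle) to 185 to 292 FPKM, although Pdgfra, their defining gene, was at 1.29 to 2.14 FPKM. Depth within a table differed by at most the ratio seen in injured muscle, where the shallowest library had 0.624 of the depth of the deepest. Among the mdx controls, the library of the mouse whose identifier begins with 82A stood apart, with a macrophage marker sum of 353 FPKM against 52.4 and 103 FPKM in the other controls.

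C1q binds antibodies, dying cells and debris and starts the classical pathway. C1q then cleaves C4 and C2 through the proteases C1r and C1s, and the resulting convertase splits C3, the component on which all routes converge. Factor B builds the amplifying convertase of the alternative pathway and properdin holds it together. The released fragments C3a and C5a act on cells through C3AR1 and C5AR1. Most plasma complement is made by the liver, whereas macrophages are the main source of C1q in the body.

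The 3 C1q genes lie side by side on the minus strand of chromosome 4 (GRCm38), C1qb at chr4:136880129-136886187, C1qc at chr4:136889804-136893065 and C1qa at chr4:136895917-136898803. C4b (chr17:34728380-34743882) and Cfb (chr17:34856374-34862518) lie in the major histocompatibility complex and C3 (chr17:57203970-57228136) farther along the same chromosome. Cfb overlaps the predicted gene Gm20547 on the same strand, so reads there could be shared between them. C4b has a near-identical neighbour, C4a, and short reads can be split between the pair. C4a was at 0.42 FPKM or lower in every library. C3ar1 (chr6:122847138-122856161), C5ar1 (chr7:16246743-16259540) and Cfp (chrX:20925454-20931555) also lie on the minus strand.

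RefSeq promoter sequences (GRCm38.p6, 300 bases around the start of transcription) were matched for 6 of the 9 genes: C1qb, C1qc, C3, Cfp, C3ar1 and C5ar1. The promoters of C1qb and C1qc, neighbours whose levels correlated at r = 0.98 over the 20 libraries, and of C3, which correlated with them at -0.02 and -0.14, are printed 5′ to 3′ on the minus strand. They cover chr4:136886151-136886450, chr4:136892865-136893164 and chr17:57228087-57228386. Capitals mark GAGGAA or its reverse TTCCTC, the letters bound by the macrophage factor PU.1, and TGCTGA or its reverse TCAGCA, the core of the element bound by MAF factors.
C1qb: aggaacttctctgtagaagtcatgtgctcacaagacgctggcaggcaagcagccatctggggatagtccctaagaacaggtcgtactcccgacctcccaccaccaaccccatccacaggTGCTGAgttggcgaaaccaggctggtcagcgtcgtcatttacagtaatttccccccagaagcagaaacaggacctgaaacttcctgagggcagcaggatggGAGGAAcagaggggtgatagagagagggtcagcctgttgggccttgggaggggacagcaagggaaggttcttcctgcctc
C1qc: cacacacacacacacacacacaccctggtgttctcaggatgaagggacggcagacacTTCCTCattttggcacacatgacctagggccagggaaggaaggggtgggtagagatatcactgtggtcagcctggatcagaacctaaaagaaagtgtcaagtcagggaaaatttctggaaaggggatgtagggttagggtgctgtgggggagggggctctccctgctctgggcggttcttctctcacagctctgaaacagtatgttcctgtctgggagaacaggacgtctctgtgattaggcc
C3: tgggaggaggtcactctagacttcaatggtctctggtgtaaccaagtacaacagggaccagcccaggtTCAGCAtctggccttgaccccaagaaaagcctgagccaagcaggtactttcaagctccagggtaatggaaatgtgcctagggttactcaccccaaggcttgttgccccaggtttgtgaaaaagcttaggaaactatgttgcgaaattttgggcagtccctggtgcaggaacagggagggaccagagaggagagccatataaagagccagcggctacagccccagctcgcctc
The search covered both strands, and no marked stretches overlapped. Counted from the start, GAGGAA began at -30 in C1qb, and its reverse began at -193 in C1qc and at 7 and 23 in Cfp. The letters were in 3 of the 6 promoters, against 28.3% of 32851 mouse promoters of the same length. TGCTGA was in 4 of 6 (C1qb, C3, C3ar1 and C5ar1), against 19.5% of all. TTCNNNGAA for STAT factors, GAAA with any 2 bases before a further GAAA for interferon response factors, and TTGCNNCAA for C/EBP factors were in none of the 6, against 8.30%, 3.44% and 2.08% of all promoters. These matches are descriptions of letters and say nothing about binding.

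In resident macrophages the C1q genes were among the most abundant transcripts of the cell. C1qa had 2293 FPKM in MHCII+ GFP+, 1624 FPKM in MHCII- GFP+, 1917 FPKM in MHCII+ GFP- and 2498 FPKM in MHCII- GFP- cells. C1qb had 2189, 1463, 1882 and 2051 FPKM and C1qc 2063, 1433, 1707 and 2477 FPKM in the same gates. The 3 genes ranked between 14th and 28th of 24338 in every gate, and together they made up 0.969% to 1.45% of all FPKM. The MHCII- GFP+ gate was the lowest for each chain, but no contrast of gates reached 2-fold for any of them.

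C4b was the next component in abundance, with 145 FPKM in MHCII+ GFP+, 91.3 FPKM in MHCII- GFP+, 177 FPKM in MHCII+ GFP- and 214 FPKM in MHCII- GFP- cells. Cfb followed the same order at a lower level, with 24.9, 13.2, 36.9 and 39.2 FPKM. C3 itself was low, at 15.9, 9.71, 17.5 and 15.2 FPKM, so that C4b exceeded C3 by 9.14 to 14.1 times within a library. Properdin, the stabilizer of the alternative convertase, had 255, 111, 292 and 300 FPKM, above C4b in every gate. Each of these 4 genes was lowest in the MHCII- GFP+ gate, and C4b, Cfb and Cfp were each highest in the MHCII- GFP- gate.

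The receptors had another order. C5ar1 had 564 FPKM in MHCII+ GFP+, 392 FPKM in MHCII- GFP+, 365 FPKM in MHCII+ GFP- and 391 FPKM in MHCII- GFP- cells. C3ar1 had 210, 226, 163 and 172 FPKM. Both GFP+ gates were above both GFP- gates for C3ar1 and C5ar1, although the MHCII- GFP+ and MHCII- GFP- values of C5ar1 were almost equal. C3ar1 stood at 0.373 to 0.575 of C5ar1.

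With 1 library per gate there is no test, and gates were compared by a fixed size of 2-fold on FPKM + 1. Between MHCII- cells, GFP+ was lower than GFP- in C4b (log2 difference -1.22), Cfb (-1.497) and Cfp (-1.43). These are 3 of 9 genes, where 2.32% of 11872 genes were lower by that size. Between MHCII+ cells the same contrast gave -0.29, -0.55 and -0.20, and none of the 9 genes passed, where 1.46% of genes did in either direction. Within GFP+ cells, MHCII+ was higher than MHCII- in Cfp (1.19), 1 of 9 genes against 2.28% of all, and Cfb stood at 0.86. Within GFP- cells none of the 9 passed, against 1.71% in either direction. All of these gaps involve the MHCII- GFP+ library. In that library the FAP markers summed to 234 FPKM, against 222 FPKM in MHCII- GFP- cells and 185 FPKM in MHCII+ GFP+ cells. The neutrophil markers summed to 381 FPKM there, against 168 FPKM in MHCII- GFP- and 434 FPKM in MHCII+ GFP+ cells. The gates were set for CD45+ LY6G- cells. The part of FAPs and neutrophils in the gaps was not tested.

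**Figure D1:**
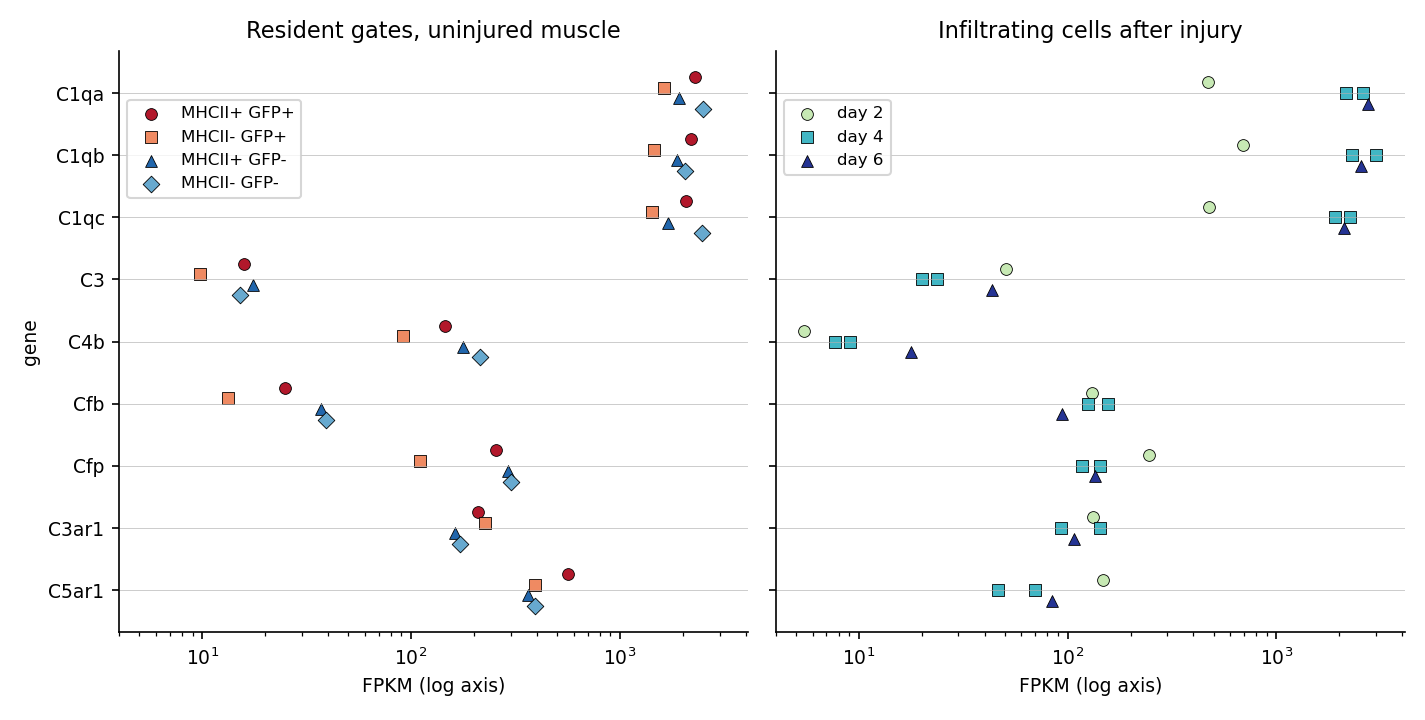
Levels of the 9 complement genes in FPKM (log axis, horizontal) for each library of resident gates (left) and of infiltrating cells by day after injury (right), with 1 point per library. The C1q genes lie farthest to the right in every library, at 469 to 693 FPKM at day 2 and at 1906 FPKM or more from day 4. C4b is at 91.3 to 214 FPKM in resident gates and 5.48 to 17.7 FPKM in infiltrating cells.

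In cells that entered injured muscle, the C1q genes were far higher at days 4 and 6 than at day 2. C1qa had 469 FPKM at day 2, 2142 and 2588 FPKM at day 4 and 2733 FPKM at day 6. C1qb had 693 FPKM at day 2, 2305 and 3002 FPKM at day 4 and 2547 FPKM at day 6, and C1qc 474, then 1906 and 2243, then 2114 FPKM. Neither day 4 library overlapped day 2 for any chain, and the step between days 4 and 6 was smaller than the gap between the day 4 libraries for every chain. The log2 difference of day 4 over day 2 was 2.32 for C1qa, 1.92 for C1qb and 2.12 for C1qc, and these were the 3 of 9 genes higher by at least 2-fold, where 5.69% of 9805 genes were. Csf1r, which marks the same lineage, had 182 FPKM at day 2, 341 and 352 FPKM at day 4 and 356 FPKM at day 6. Other markers moved too, with a monocyte sum of 3321 FPKM at day 2, 620 and 708 FPKM at day 4 and 546 FPKM at day 6. The dendritic cell markers, a list that includes the MHCII gene H2-Ab1, summed to 696 FPKM at day 2, 2285 and 2941 FPKM at day 4 and 4901 FPKM at day 6. Their mean log2(FPKM + 1) was 2.82 at day 2, 3.77 and 3.76 at day 4 and 4.50 at day 6. The part of these shifts in the C1q values was not tested.

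C3 and C5ar1 were lower at day 4 by more than 2-fold. C3 had 50.7 FPKM at day 2, 20.1 and 23.6 FPKM at day 4 and 43.6 FPKM at day 6, so that its lowest levels were in the middle of the course (log2 difference of day 4 over day 2 -1.18). C5ar1 had 147 FPKM at day 2, 69.6 and 46.5 FPKM at day 4 and 83.8 FPKM at day 6 (-1.35). These were 2 of 9 genes, where 4.99% of genes were lower by that size. Properdin was just short of it, with 246 FPKM at day 2, 117 and 143 FPKM at day 4 and 136 FPKM at day 6 (-0.92), and without day 4 replicate 2 it passed (-1.06).

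C4b was low at each time and highest at day 6, with 5.48 FPKM at day 2, 7.66 and 9.08 FPKM at day 4 and 17.7 FPKM at day 6. The 8 FAP markers summed to 310 FPKM at day 2, 196 and 304 FPKM at day 4 and 200 FPKM at day 6. Their mean log2(FPKM + 1) was 2.82 at day 2, 2.78 and 3.72 at day 4 and 3.74 at day 6. Dcn, a member of that list, had 6.97 FPKM at day 2, 5.14 and 16.3 FPKM at day 4 and 20.2 FPKM at day 6, and its part in the C4b values was not tested. Pdgfra was at 0.628 FPKM or lower in every infiltrating library. Cfb, at 130 FPKM at day 2, 126 and 157 FPKM at day 4 and 94.4 FPKM at day 6, and C3ar1, at 132, then 142 and 93.4, then 107 FPKM, changed by less than 2-fold between any days.

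Between days 6 and 4 none of the 9 genes passed 2-fold, where 1.38% of genes did in either direction. C4b (log2 difference 0.9998) and C3 (0.97) lay just inside the limit, and without day 4 replicate 2 both passed it (1.11 and 1.08). Between days 6 and 2, C1qa (2.54), C1qb (1.88), C1qc (2.15) and C4b (1.53) were higher, 4 of 9 genes against 6.33% of all, and none was lower, against 4.14%.

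The sorted experiments were deposited as separate tables, so their levels are set side by side without a test. C1q levels at days 4 and 6 lay in or above the range of the resident gates. Percentiles are over 24338 genes in resident and 16836 in infiltrating libraries, so their scales differ. C4b was at the 96.9th to 98.6th percentile of genes in resident libraries (ranks 333 to 761) and at the 65.5th to 83.9th in infiltrating ones (ranks 2709 to 5808). C3 and Cfb ran the other way, at the 74.5th to 83.4th and 78.9th to 92.3rd percentile in resident libraries and at the 85.1st to 93.0th and 96.5th to 97.7th in infiltrating ones. The ratio of C3ar1 to C5ar1 was 0.898 at day 2, 2.04 and 2.01 at day 4 and 1.28 at day 6, where resident gates had 0.575 at most.

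In mdx muscle after 6 months of the PLX73086 diet, none of the 8 genes that could be tested passed an adjusted p of 0.05, although C3 and C4b were higher in every PLX library than in every control. The C1q genes had lower means and C3, C4b and Cfb higher means in PLX muscle, but the controls differed widely among themselves. C5ar1 had a mean under 1 FPKM and was not tested. In whole muscle, fewer cells of a type and less RNA per cell cannot be told apart.

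C1qa had 4.05, 13.7 and 8.05 FPKM in the PLX mice with the identifiers 81A, 82A and 81D, against 9.98, 51.4 and 18.4 FPKM in the control mice with the same beginnings. C1qb had 4.68, 17.9 and 9.06 FPKM in PLX against 7.20, 55.0 and 17.0 FPKM in control muscle. C1qc had 2.75, 13.2 and 6.09 FPKM in PLX against 7.34, 48.4 and 14.0 FPKM in control muscle. The groups overlapped for each chain, since the 82A PLX library exceeded the 81A control. Each PLX library was below the control with which it shares an identifier. The share of all genes lower in every such pair was not counted, and the chains correlated closely with each other. What the identifier denotes is not stated. C1qa averaged 8.61 ± 4.86 FPKM in PLX and 26.6 ± 21.9 FPKM in control muscle (SD, n = 3 each), a log2 change of -1.35 ± 0.59 (SE), with an adjusted p of 0.324 (limma-trend, Benjamini-Hochberg). The changes were -0.98 ± 0.71 for C1qb (adjusted p = 0.528) and -1.34 ± 0.70 for C1qc (0.386). With the identifier as a block, adjusted p was 0.0613 for C1qa and C1qc and 0.115 for C1qb (limma-trend). Without the 82A control the 3 changes shrank to -0.74, -0.24 and -0.63. Csf1r ranged from 0.813 to 2.36 FPKM in PLX and from 2.37 to 16.3 FPKM in control muscle, and the macrophage marker sum was 54.5 to 112 FPKM in PLX and 52.4 to 353 FPKM in control muscle, where 2 to 4 of the 8 markers in PLX and 3 to 7 in control libraries reached 1 FPKM. The sums of the 8 resident macrophage markers did not overlap, at 11.7 to 19.3 FPKM in PLX and 26.1 to 73.8 FPKM in control muscle. Of these markers, 2 to 3 in PLX and 5 in control libraries reached 1 FPKM. Among all single genes tested, 11.6% lay below all controls in PLX. The part of these markers in the C1q values was not tested.

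C3 had 9.53, 10.99 and 7.00 FPKM in PLX against 2.16, 6.32 and 4.86 FPKM in control muscle, and every PLX library was above every control. C4b had 2.10, 2.23 and 1.32 FPKM in PLX against 0.563, 1.25 and 0.770 FPKM in control muscle, also without overlap. The log2 changes were 0.97 ± 0.31 for C3 (adjusted p = 0.212, limma-trend) and 0.63 ± 0.19 for C4b (adjusted p = 0.197). Without overlap, PLX is necessarily above control in every pair with the same identifier. Cfb, at 3.21, 4.198 and 2.28 FPKM in PLX against 1.002, 3.48 and 1.68 FPKM in control muscle, overlapped and changed by 0.53 ± 0.30 (adjusted p = 0.432). The sum of the 8 FAP markers was 297 to 506 FPKM in PLX and 255 to 343 FPKM in control muscle, and Dcn was 118 to 179 FPKM in PLX and 87.1 to 162 FPKM in control muscle. Their part in these values was not tested.

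Properdin had 1.35, 1.46 and 0.946 FPKM in PLX against 0.914, 5.28 and 3.74 FPKM in control muscle, a change of -0.78 ± 0.40 (adjusted p = 0.384). C3ar1 had 0.528, 1.16 and 0.735 FPKM in PLX against 0.505, 4.97 and 1.38 FPKM in control muscle, a change of -0.63 ± 0.46 (adjusted p = 0.530). C5ar1 had 0.203, 0.457 and 0.240 FPKM in PLX against 0.319, 1.16 and 0.832 FPKM in control muscle. All 3 overlapped between the diets, and all 3 were highest in the 82A control.

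Over all genes, 0.127% of 10197 were called higher and 0.0294% lower in PLX muscle at an adjusted p under 0.05, so few genes of any kind passed here. Of the 8 complement genes none passed and 2 (C3 and C4b) had an unadjusted p under 0.05, where 16.2% of all genes did. The PLX libraries lay above all controls in 2 of 8 genes, against 11.4% of all genes tested, and below all controls in none, against 11.6%.

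**Figure D2:**
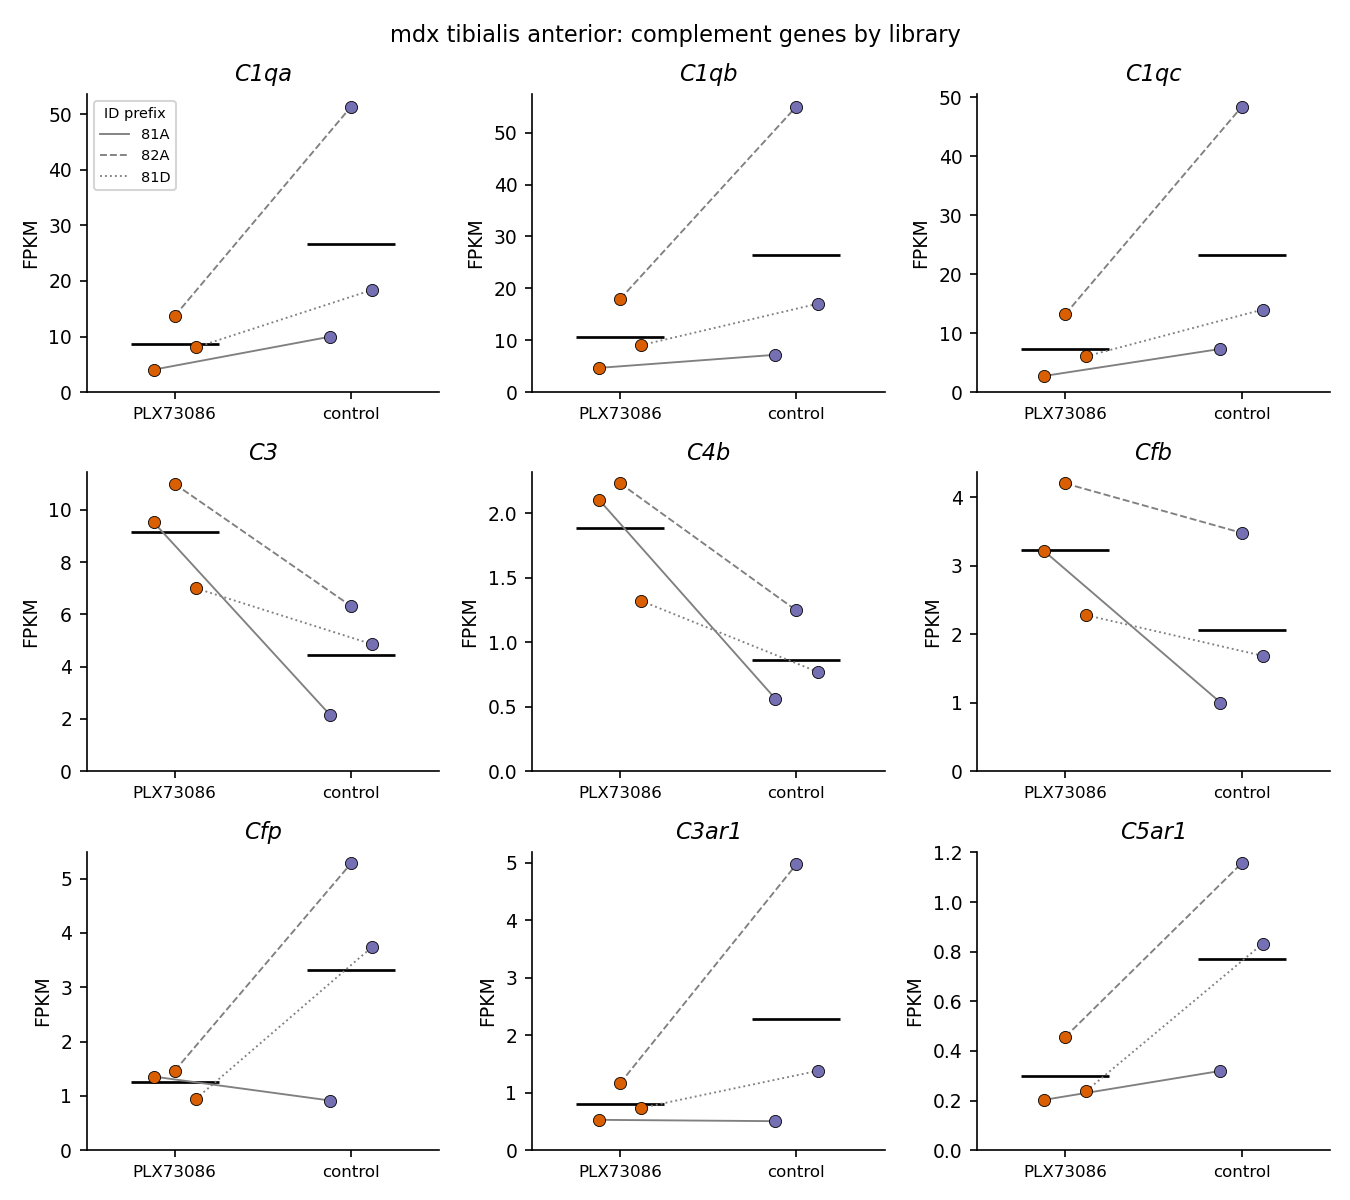
FPKM of the 9 complement genes in whole TA of mdx mice on PLX73086 (left) and control diet (right), 3 libraries each, with 1 point per library, a bar at the mean and a line joining mice whose identifiers begin alike. C1qa, C1qb and C1qc are lower and C3, C4b and Cfb higher in the PLX member of every pair, a pattern not counted over all genes. The 82A control holds the highest C1q values, at 48.4 to 55.0 FPKM.

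In injured muscle of mice that had eaten PLX73086 and were then returned to regular food, Cfb, C3ar1, C3 and C4b rose relative to the control diet. The fit had hours after injury as a term, and these were 4 of 9 genes against 5.42% of 11578 genes called higher, and none fell, against 6.23%. The remaining 5 genes had positive changes that did not pass. At 18 h all 9 genes were higher in both PLX libraries than in both controls, and at 12 h C1qa, C1qc and, slightly, Cfp were lower in the PLX library.

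Cfb had 38.7 and 37.0 FPKM in PLX muscle at 18 h, against 15.0 and 15.3 FPKM in controls at 18 h, and 36.1 FPKM in PLX against 21.1 FPKM in control muscle at 12 h. Each PLX library was above each control at either time. The share of all genes separated in this way over both times was not counted, and at 18 h alone it was 32.4%. The change over both times was 1.09 ± 0.15 (log2 ± SE, adjusted p = 0.0166, limma-trend). C3 had 46.5 and 43.7 FPKM in PLX against 22.4 and 28.7 FPKM in control muscle at 18 h, and 78.7 FPKM in PLX against 30.3 FPKM in control muscle at 12 h, where it reached its highest value. Its change was 0.99 ± 0.17 (adjusted p = 0.0230, limma-trend), and with the animal identifier as a block it did not pass (0.0524). C4b stayed low, with 4.63 and 5.53 FPKM in PLX against 1.85 and 2.87 FPKM in control muscle at 18 h, and 4.00 FPKM in PLX against 1.72 FPKM in control muscle at 12 h. Its change was 0.87 ± 0.16 (adjusted p = 0.0254, limma-trend), and its PLX values did not overlap the controls, again without a count over all genes.

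C3ar1, the C3a receptor, had 43.7 and 44.1 FPKM in PLX against 22.0 and 24.7 FPKM in control muscle at 18 h, and 25.2 FPKM in PLX against 16.0 FPKM in control muscle at 12 h. Its change was 0.80 ± 0.13 (adjusted p = 0.0202), with PLX above control at both times. C5ar1 had 110.9 and 100.6 FPKM in PLX against 54.2 and 62.4 FPKM in control muscle at 18 h, and 78.7 FPKM in PLX against 66.6 FPKM in control muscle at 12 h. Its groups did not overlap, a separation not counted over all genes, and the change of 0.65 ± 0.18 did not pass (adjusted p = 0.0616, limma-trend).

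C1qa had 448 and 431 FPKM in PLX against 160 and 195 FPKM in control muscle at 18 h, and 69.0 FPKM in PLX against 111 FPKM in control muscle at 12 h. C1qb had 568 and 569 FPKM in PLX against 207 and 261 FPKM in control muscle at 18 h, and 177 FPKM in PLX against 155 FPKM in control muscle at 12 h. C1qc had 329 and 314 FPKM in PLX against 118 and 140 FPKM in control muscle at 18 h, and 80.5 FPKM in PLX against 102 FPKM in control muscle at 12 h. At 18 h the PLX libraries were thus far above the controls for every chain, while at 12 h the PLX library was below the control for C1qa and C1qc. Over both times the changes were 0.65 ± 0.39 for C1qa (adjusted p = 0.311), 0.92 ± 0.26 for C1qb (0.0654) and 0.76 ± 0.34 for C1qc (0.179), all by limma-trend. Properdin followed the same pattern, with 203 and 233 FPKM in PLX against 92.5 and 116 FPKM in control muscle at 18 h, and 102 FPKM in PLX against 105 FPKM in control muscle at 12 h. Its change was 0.69 ± 0.26 (adjusted p = 0.123).

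**Figure D3:**
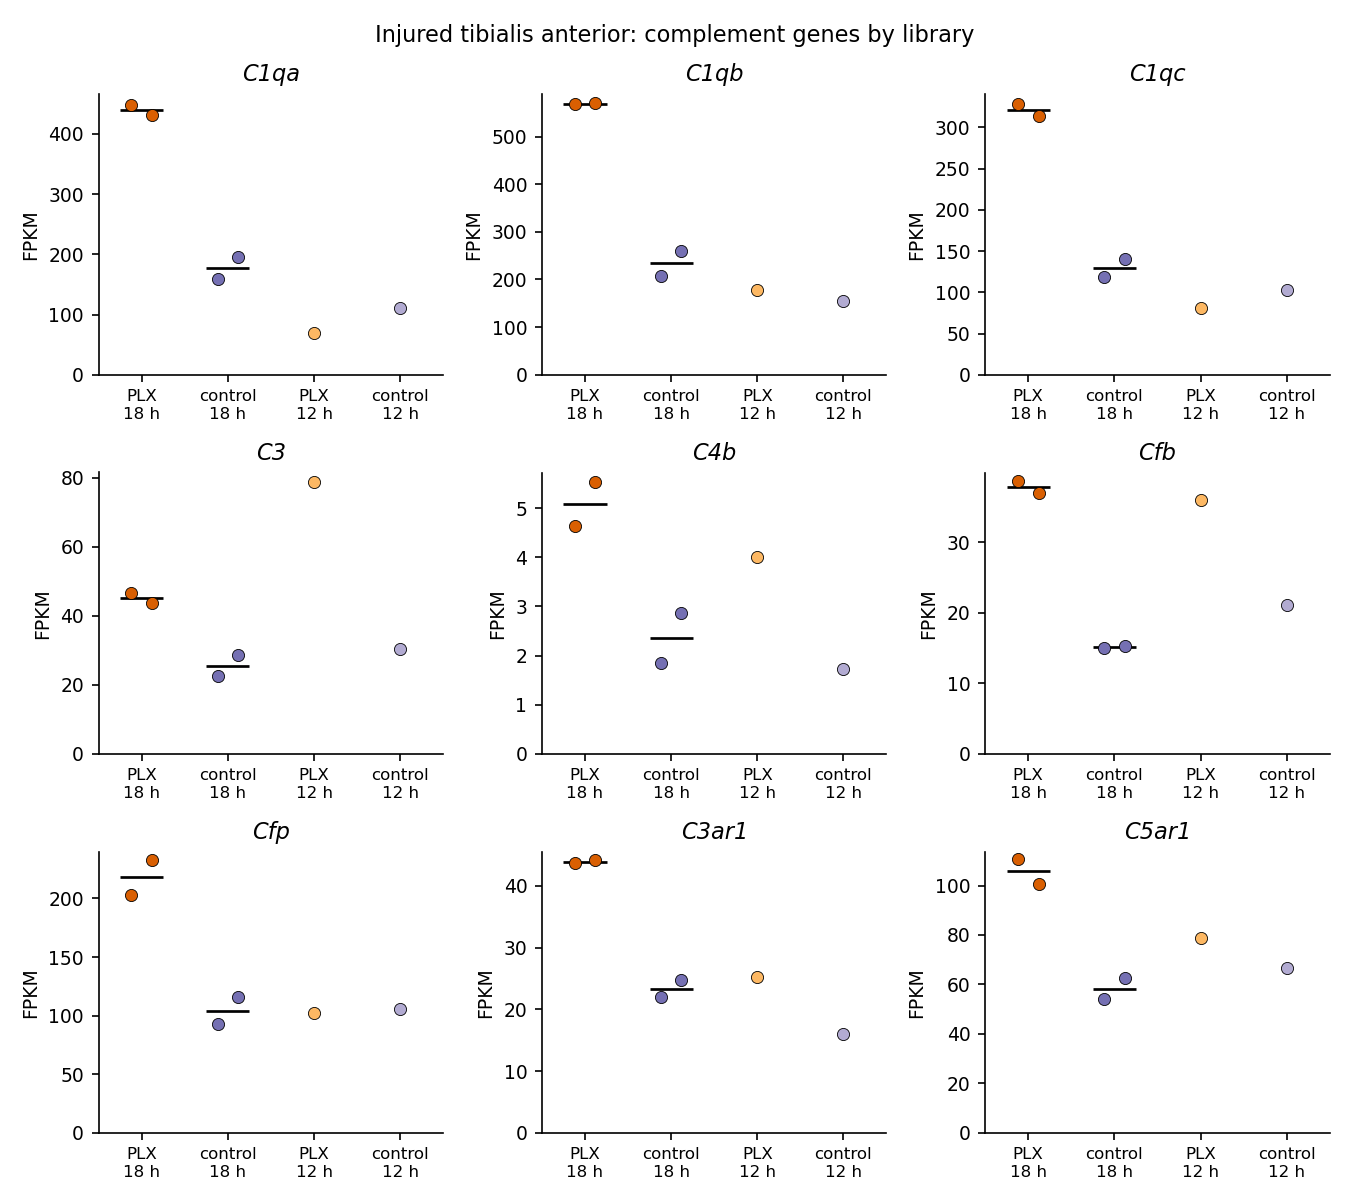
FPKM of the 9 complement genes in injured TA, from left to right PLX and control at 18 h (2 libraries each, bar at the mean) and PLX and control at 12 h (1 library each). All 9 genes are higher in PLX at 18 h. At 12 h C1qa, C1qc and Cfp are lower in PLX and the others higher, with C1qb at 177 against 155 FPKM and C5ar1 at 78.7 against 66.6 FPKM.

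The 18 h libraries taken alone gave calls for all 9 genes, each higher in PLX, where 10.6% of 11525 genes were called higher. The changes were 1.31 ± 0.16 for C1qa, 1.29 ± 0.17 for C1qb and 1.32 ± 0.15 for C1qc, with adjusted p of 0.00711, 0.00871 and 0.00620 (limma-trend). Cfb changed by 1.27 ± 0.11, Cfp by 1.06 ± 0.17, C3ar1 by 0.89 ± 0.12, C4b by 0.87 ± 0.20, C5ar1 by 0.85 ± 0.13 and C3 by 0.81 ± 0.15, with adjusted p between 0.00402 and 0.0323. With 2 libraries against 2, lack of overlap is common, and 32.4% of all genes had both PLX libraries above both controls at 18 h. Csf1r changed by 0.93 ± 0.12 and Adgre1 by 1.08 ± 0.19 in the same libraries.

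Cell markers moved with the diet as well. The 8 macrophage markers summed to 1720 and 1692 FPKM in PLX against 1000 and 1101 FPKM in control muscle at 18 h, and to 1211 FPKM in PLX against 937 FPKM in control muscle at 12 h. The resident macrophage markers, another list of 8, summed to 1821 and 2153 FPKM in PLX against 901 and 1292 FPKM in control muscle at 18 h, and to 1071 FPKM in PLX against 529 FPKM in control muscle at 12 h. The 8 monocyte markers summed to 982 and 949 FPKM in PLX against 254 and 296 FPKM in control muscle at 18 h, and to 938 FPKM in PLX against 317 FPKM in control muscle at 12 h. These 3 lists were higher in PLX at each time, without overlap within a time, and all 8 macrophage and all 8 monocyte markers reached 1 FPKM in every injured library. The neutrophil markers summed to 1135 and 747 FPKM in PLX against 569 and 659 FPKM in control muscle at 18 h, and to 1767 FPKM in PLX against 949 FPKM in control muscle at 12 h. The myofibre markers were lower, with sums of 26945 and 37284 FPKM in PLX against 60918 and 78657 FPKM in control muscle at 18 h, and of 30767 FPKM in PLX against 81927 FPKM in control muscle at 12 h. FAP sums were 1199 and 1405 FPKM in PLX against 785 and 1232 FPKM in control muscle at 18 h, and 1482 FPKM in PLX against 870 FPKM in control muscle at 12 h. The dendritic cell markers summed to 222 and 196 FPKM in PLX against 118 and 138 FPKM in control muscle at 18 h, and to 99.8 FPKM in PLX against 230 FPKM in control muscle at 12 h, so that they were higher in PLX at 18 h and lower at 12 h. That list includes H2-Ab1. The part of these shifts in the complement values was not tested.

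The calls over both times rested on few libraries. Leaving out PLX 18 h replicate 1, PLX 18 h replicate 2, control 18 h replicate 1 or control 18 h replicate 2 each ended all 4 calls, with lowest adjusted p of 0.0771, 0.0541, 0.0653 and 0.0667, while the changes stayed between 0.73 and 1.14. Over all 16 settings tried, the adjusted p ranged from 0.00044 to 0.1 for Cfb, from 0.00102 to 0.123 for C3ar1, from 0.00536 to 0.136 for C3 and, over 15 settings, from 0.0072 to 0.149 for C4b. Without these 18 h libraries 0% to 1.56% of all genes were called. Leaving out either 12 h library gave 9 calls, with 19.4% of all genes called, since the other 12 h library then bears on the term for hours alone.

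Between 18 h and 12 h, over both diets, no complement gene passed, where 0.00864% of genes were higher and 0.0691% lower. The changes were 1.66 ± 0.42 for C1qa (adjusted p = 0.125), 1.13 ± 0.27 for C1qb (0.118), 1.15 ± 0.36 for C1qc (0.173), 0.64 ± 0.14 for C3ar1 (0.109) and -0.52 ± 0.18 for C3 (0.203), all by limma-trend, and these 5 had an unadjusted p under 0.05, against 19.7% of all genes. Without the control library at 12 h, 16.4% of all genes passed and so did 6 of the 9: C1qa (2.65), C1qb (1.68), C1qc (1.98), Cfp (1.08), C3ar1 (0.78) and, lower at 18 h, C3 (-0.79).

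An interaction term tested whether diet acted differently at the later time. No complement gene passed, where 0.0432% of genes were called with a more positive and 0.0173% with a more negative effect at 18 h, and 6 of 9 had an unadjusted p under 0.05, against 23.3% of all genes. The differences were 1.99 ± 0.26 for C1qa (adjusted p = 0.0886), 1.66 ± 0.24 for C1qc (0.0912), 1.11 ± 0.28 for Cfp (0.126) and 1.09 ± 0.28 for C1qb (0.128), all by limma-trend. C3 had -0.54 ± 0.26 (0.276) and C4b -0.01 ± 0.34 (0.988). Each 12 h group is 1 library and is assumed to vary like the libraries of 18 h.

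**Figure D4:**
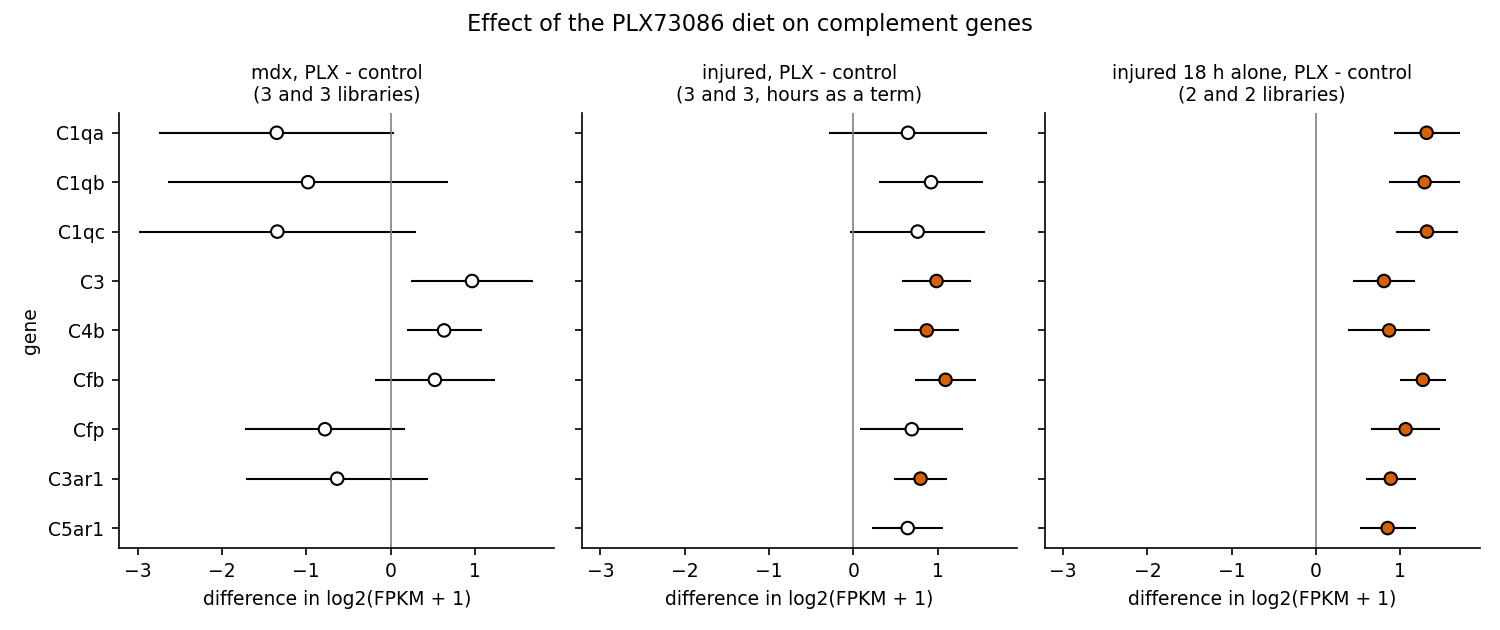
Differences in log2(FPKM + 1) of PLX over control muscle for each complement gene, as limma estimates with 95% confidence intervals, in mdx muscle, in injured muscle over both times and in the 18 h libraries alone. Filled points passed an adjusted p of 0.05: none in mdx muscle, Cfb, C3ar1, C3 and C4b over both times, and all 9 at 18 h alone.

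The chains of C1q did not keep a fixed ratio. C1qa stood at 1.02 to 1.22 of C1qb in resident gates. In infiltrating cells it stood at 0.678 at day 2, 0.929 and 0.862 at day 4 and 1.07 at day 6. In injured muscle it was 0.789 and 0.756 in PLX against 0.770 and 0.747 in control libraries at 18 h, and 0.390 in PLX against 0.717 in control muscle at 12 h. The PLX library at 12 h was therefore the lowest of all 20. In mdx muscle the ratio was 0.866, 0.765 and 0.889 in PLX against 1.39, 0.933 and 1.08 in control muscle, without overlap between the diets. How often ratios of other genes separate the diets was not counted.

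Across the 12 whole-muscle libraries, each centred on its table, the 9 genes fell into 2 sets by their correlation. The C1q genes, C3ar1, Cfp and C5ar1 correlated with each other at 0.77 to 0.98 (Pearson's r on log2(FPKM + 1)), and C3, C4b and Cfb with each other at 0.81 to 0.87. Between the sets r ran from -0.14 (C1qa with C3) to 0.61 (Cfb with C5ar1). Libraries of a table share their diet groups and processing, so the values describe these libraries only. The sets did not hold in the 8 sorted libraries. There the C1q genes still correlated with each other at 0.98 to 0.99, but with C3ar1 at -0.48 to -0.45 and with Cfp at -0.36 to -0.31. C3, C4b and Cfb correlated with each other at 0.23 to 0.36 in sorted cells. C1qa and C5ar1 had an r of -0.73 over the 8 sorted libraries, against 0.77 in whole muscle. Of the infiltrating libraries, the lone day 2 library had the lowest C1qa (469 FPKM) and the highest C5ar1 (147 FPKM). In resident gates the lowest C1qa (1624 FPKM) went with 392 FPKM of C5ar1 and the highest (2498 FPKM) with 391 FPKM, so the opposite course was not seen there.

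**Figure D5:**
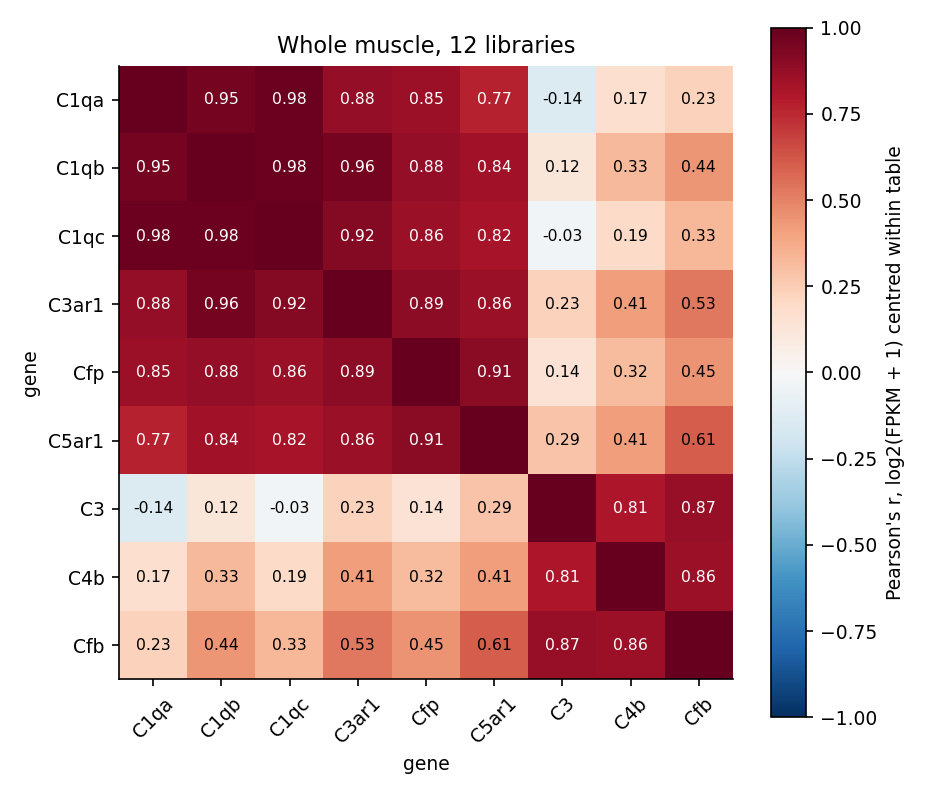
Pearson's r between complement genes over 12 whole-muscle libraries (6 mdx and 6 injured), on log2(FPKM + 1) centred within each table, with red for positive and blue for negative values. The C1q genes, C3ar1, Cfp and C5ar1 form 1 block at 0.77 to 0.98 and C3, C4b and Cfb another at 0.81 to 0.87.

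Of 4174 other genes measured well in all tables, those most like the mean of the C1q genes over 20 libraries were Apoe (r = 0.94), the gene of apolipoprotein E, Ctsh (0.90), a lysosomal protease, and Unc93b1 (0.89). C3ar1 was most like Sirpa (0.90), a receptor on myeloid cells, and C5ar1 most like Gnb1 (0.89). C3 was most like Fn1 (0.86), which encodes fibronectin, and C4b most like Col3a1 (0.82) and Bgn (0.81), which encode matrix proteins. Cfb was most like Ppp1r9b (0.89) and Cfp most like Myl12b (0.85).

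Other complement genes set the 9 in context, from a list of 49. In resident macrophages 13 of them averaged at least 10 FPKM. Among these, ficolin A (Fcna), a recognition molecule of the lectin pathway, had 205 to 403 FPKM and Vsig4, a receptor for C3b, 14.2 and 11.1 FPKM in the MHCII+ gates with and without GFP, against 85.4 and 67.8 FPKM in the MHCII- gates with and without GFP. In infiltrating cells Fcna was at most 6.18 FPKM and Vsig4 at most 0.173 FPKM. The chains of complement receptor 3, Itgam and Itgb2, averaged 162 and 145 FPKM in resident and 92.5 and 158 FPKM in infiltrating cells. Hc, the gene of C5, was at 0.54 FPKM or lower in all 20 libraries, and C8a, C8b and C9, where a table lists them, at 0.51 FPKM or lower.

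In mdx muscle none of 19 other complement genes tested passed. The lowest adjusted p was 0.104, for the regulator Clu, which encodes clusterin, at 32.9 to 40.3 FPKM in PLX and 19.8 to 27.0 FPKM in control muscle (change 0.67). Their median change was 0.12, against -0.71 for the 8 complement genes tested and -0.003 for all genes. In injured muscle 4 of 20 rose in PLX over both times: Itgam (1.09, adjusted p = 0.0151), Itgb2 (0.86, 0.0262), the C1 protease gene C1ra (0.62, 0.0292) and Serping1, which encodes the C1 inhibitor (0.74, 0.0498), all by limma-trend. Serping1 passed in 5 of 16 other settings. Itgam, Itgb2 and C1ra lost their calls without any 1 of the 18 h libraries, and their adjusted p ran up to 0.0955, 0.134 and 0.116 over all settings. Clu fell by 1.40 on the log2 scale (adjusted p = 0.0229), with 70.6 and 71.0 FPKM in PLX against 128 and 237 FPKM in control muscle at 18 h, and 66.4 FPKM in PLX against 206 FPKM in control muscle at 12 h. It too lost its call without any 1 of the 18 h libraries, with adjusted p of up to 0.156 over all settings. With the animal identifier as a block, C1ra (adjusted p = 0.0573) and Itgb2 (0.0560) no longer passed. The median change was 0.44 for these 20 genes, 0.80 for the 9 complement genes and -0.02 for all 11578 genes.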

How the data were processed

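RNA of 20 libraries was sequenced as stranded paired-end reads of 43 bases, per the labels. The authors deposited FPKM values in 4 tables, 1 per experiment. The submitters' processing notes name STAR, Bowtie, Cufflinks, bcl2fastq and mm10, without roles or versions. In 3 tables values under 0.01 FPKM stand at 0.01. Alignments, 25953400 to 34655400 per library, are given for infiltrating cells only. Elsewhere the depth is unknown, and relative depth came from the steps between values under 0.2 FPKM.

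Entries whose names had become dates and overwritten entries were removed, which left 24338 genes in the resident, 16836 in the infiltrating, 24340 in the mdx and 24313 in the injured table. Missing values affected 3 genes in mdx and 10 in injured muscle, none of them described here. Genes averaging 1 FPKM or more were analysed as log2(FPKM + 1), a scale that understates changes of low genes.

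Whole muscle was tested with limma-trend (limma 3.58.1, R 4.3.3), two-sided, with Benjamini-Hochberg adjustment over all genes of a table and a threshold of 0.05. The model had diet for mdx muscle, and diet and hours for injured muscle. A fit of 4 group means gave the difference of diet effects between times. p-values measure the spread between these libraries. Sorted cells were described by a 2-fold rule on FPKM + 1, with no test, and tables were never tested against each other. The methods were tested on simulated data. The 9 genes, the list of 49 other complement genes, the markers and the motifs were chosen with earlier results of these data known. Named genes outside the 9 were the 3 most similar to a member in the pattern across libraries, other complement genes past the threshold or of high level in sorted cells, and cell markers. Locations are from GENCODE M21 and promoters from RefSeq. Python 3.11.15 ran pandas 2.3.3, matplotlib 3.10.9, numpy 2.4.6 and scipy 1.17.1. Alternatives were a pseudocount of 0.1, other filters and scalings, array weights, no trend, other model terms, an identifier block and each library left out.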

Additional observations from a re-analysis of the deposited data

Results flagged for a closer look

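In injured muscle 3 complement genes had PLX above control in every library at 18 h and below it at 12 h, where each diet has 1 library. The share of all genes with this pattern was not counted. At 18 h alone, 32.4% of all genes had PLX above control without overlap. C1qb did not turn, with 177 FPKM in PLX against 155 FPKM in control muscle at 12 h. The effect of the diet at 18 h minus that at 12 h was 1.99 (log2) for C1qa, 1.66 for C1qc and 1.11 for Cfp. The difference was tested as an interaction by limma-trend and did not pass, with adjusted p of 0.0886, 0.0912 and 0.126. At 12 h the PLX library had 69.0 FPKM of C1qa against 111 FPKM in the control, 80.5 FPKM of C1qc against 102 FPKM and 102 FPKM of Cfp against 105 FPKM, so that Cfp differed by only 0.04 on the log2 scale. The 12 h difference has no replicate. The dendritic cell markers turned the same way, with sums of 222 and 196 FPKM in PLX against 118 and 138 FPKM in control muscle at 18 h and 99.8 FPKM in PLX against 230 FPKM in control muscle at 12 h, and H2-Ab1 had a difference of diet effects of 1.95 (adjusted p = 0.0886). Their part in the complement values was not tested. Without any 1 of the 18 h libraries, an alternative chosen after seeing the data, the values ran from 1.85 to 2.13 for C1qa, from 1.54 to 1.78 for C1qc and from 0.95 to 1.27 for Cfp, and none passed.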

How the results depend on the processing

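The counts of complement genes past the threshold were recomputed under each alternative. In mdx muscle the count was 0 under every setting, also with the identifier block. In injured muscle the 4 calls for diet became 0 with no filter on low values (0.0206% of all genes called), 7 with quantile normalisation (10.7%), 9 with array weights (35.9%), 1 with no term for hours (4.2%) and 9 for the 18 h libraries alone (20.2%), and leaving out libraries in turn gave 0 to 9 (0% to 19.4%). With the animal identifier as a replicate block there were 3 calls (3.99%), without C3 (adjusted p = 0.0524, limma-trend). For 18 h over 12 h the count was 0, and 0 to 6 with a library left out, where 6 came with 16.4% of all genes called. For day 6 over day 4 the count of 0 became 1 with a pseudocount of 0.1, 1 with upper quartile scaling and 2 with quantile normalisation, and 0 to 2 with a day 4 library left out. The causes were not tested. Some values changed sign. With 1 library left out, the change of 18 h over 12 h ran from -0.453 to 0.0679 for Cfb, from -0.0252 to 1.08 for Cfp and from -0.193 to 0.421 for C5ar1, each extreme without a 12 h library. For C4b the difference of diet effects between times was 0.0738 with quantile normalisation and ran from -0.231 to 0.208 with an 18 h library left out. Mice with the same identifier prefix deviated together from their group means by correlations of 0.29, 0.36 and 0.06 in mdx muscle. Each mdx mouse correlated best with its own prefix, though deviations cancel within a group, so that some pairs must correlate positively. In injured muscle at 18 h the correlation was 0.28, where 2 libraries per group allow only 1 size of correlation, with either sign. What the prefix denotes is not stated, and it was used only as an alternative block. With that block the mdx changes were -1.35 ± 0.17 (SE) for C1qa, -1.34 ± 0.16 for C1qc and -0.98 ± 0.20 for C1qb. Their adjusted p was 0.0613, 0.0613 and 0.115 (limma-trend). Over all settings adjusted p ranged from 0.0613 to 0.822 for C1qa and C1qc. With 1 to 3 libraries per group, changes of the sizes seen in mdx C1q did not pass. The 12 h libraries cannot be left out of the test of times against diet.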
